A study of Bos taurus with 6 samples.

Results

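The genes described here encode the pathway that LY294002 blocks: the receptor adapters, PI3K subunits, phosphatases, AKT, the TSC and mTOR complexes, S6 kinases, AMPK and the stress inhibitors of mTOR. A list of 56 such genes was matched to the array by gene symbol. A gene was taken as measured where a probe (a transcript cluster of the array) carried its symbol and no other. This held for 54 genes with 57 probes, among 18010 genes on 24415 probes in all. RHEB, the small GTPase that activates mTOR, and RRAGC, a Rag GTPase, lie only on probes that also carry a second symbol, and their values are not given.

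PI3K is recruited to activated receptors such as those of insulin and IGF1, directly or through adapters, and makes the membrane lipid PIP3. PIP3 brings AKT to the kinase PDPK1, and AKT in turn phosphorylates GSK3, the FOXO factors and TSC2, which relieves the brake of the TSC complex on mTOR. In granulosa cells, the cells that surround the oocyte in the follicle, FSH and IGF1 both feed into this cascade, which is known for its part in their survival, proliferation and estradiol production. Transcripts of several components are themselves controlled by the pathway, which makes their mRNA levels of interest when signaling is blocked.

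The cells were primary bovine granulosa cells aspirated from follicles of 2 to 6 mm, frozen, thawed and grown with R3 IGF1 (50 ng/mL) and FSH (20 ng/mL) in both groups. On day 2, one group was exposed to 50 μM LY294002 and the other to the solvent DMSO alone. Most of the spent medium was replaced for this by medium that lacked FSH and IGF1. The base medium described in the methods contained insulin. After 2 h most of the medium was exchanged again, for fresh medium with FSH and IGF1, and the methods do not say whether it held the inhibitor. They place the analysis of such cultures either shortly after this exchange or on day 4, without naming the time for the arrays. LY294002 competes with ATP in PI3K and is known to act on mTOR and other kinases too, so a change cannot be assigned to PI3K alone. Each group has 3 samples on 3 arrays. The paper's legends describe n as separate cultures of cells collected on different days, but no source names the day behind an array. The p-values rest on the spread between these arrays within a group, which limma draws toward that of all probes.

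The signals are log2 values from RMA, with array medians between 4.98 and 5.01. Pearson's r across all probes, which are not independent replicates, was 0.988 to 0.989 between arrays of different groups and 0.994 to 0.995 between LY294002 arrays. All 9 granulosa cell markers checked had signals of at least 5.17, and of these CYP19A1, FOXL2, AMH and AMHR2 fell and NR5A2 rose with LY294002. The 7 measured white blood cell markers had signals of 1.83 to 6.13, and 0 of them rose or fell in limma (1 had an unadjusted p under 0.05, and 0 passed without moderation of the variances). The 4 endothelial cell, 4 oocyte and 2 red blood cell markers had signals of 1.77 to 5.98, and none of them passed in limma (1 endothelial marker had an unadjusted p under 0.05). Of 4 markers of stromal cells, with signals of 8.61 to 11.97, PDGFRA rose (log2 fold change 0.69, adjusted p = 0.00117 in limma), while DCN (-0.29, adjusted p = 0.0454 in limma, under 1.4-fold), COL1A1 (-0.17) and LUM (-0.05) had estimates below 0, and 3 of the 4 had an unadjusted p under 0.05. Of 3 theca cell markers INSL3 fell (-1.05, adjusted p = 0.00763 in limma), and 2 had an unadjusted p under 0.05. LHCGR (-0.53, adjusted p = 0.0552 in limma) and CYP17A1 (-0.04) did not pass. INSL3 had a DMSO mean of 8.22, against 3.52 for LHCGR and 3.02 for CYP17A1, so the sum of the theca markers mostly follows INSL3. The log2 of the summed stromal signal was 12.52 to 12.56 in DMSO and 12.48 to 12.54 in LY294002, and that of the theca markers was 8.06 to 8.46 and 7.11 to 7.49. Their part in the values of the pathway genes was not tested.

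The words rose and fell are kept for genes with an adjusted p under 0.05 in limma, taken over all probes, and a change of at least 1.4-fold (0.49 on the log2 scale), which are the thresholds named in the study's methods. A gene with several probes was counted by the brightest. Among the 54 members, 3 rose (TRIB1, DEPTOR and PRKAB2), 5 fell (PIK3R3, DDIT4, SESN3, GAB1 and SESN2) and 46 did not pass. Over all 18010 genes, 2.99% rose and 3.99% fell, compared with 5.56% and 9.26% of the members. The shares of the members rest on 3 and 5 genes, and the members were chosen with earlier results of these data known. In addition, 0 members lie among the dimmest probes left out in an alternative analysis, while all genes include such probes. These shares therefore cannot show whether members changed more often than other genes. The members had a median log2 fold change of -0.04 and all genes one of 0.01, and the median size of the change regardless of sign was 0.17 and 0.14. Most members thus had small differences in mRNA signal, and the 8 genes that passed were spread over several levels of the cascade.

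**Figure D1:**
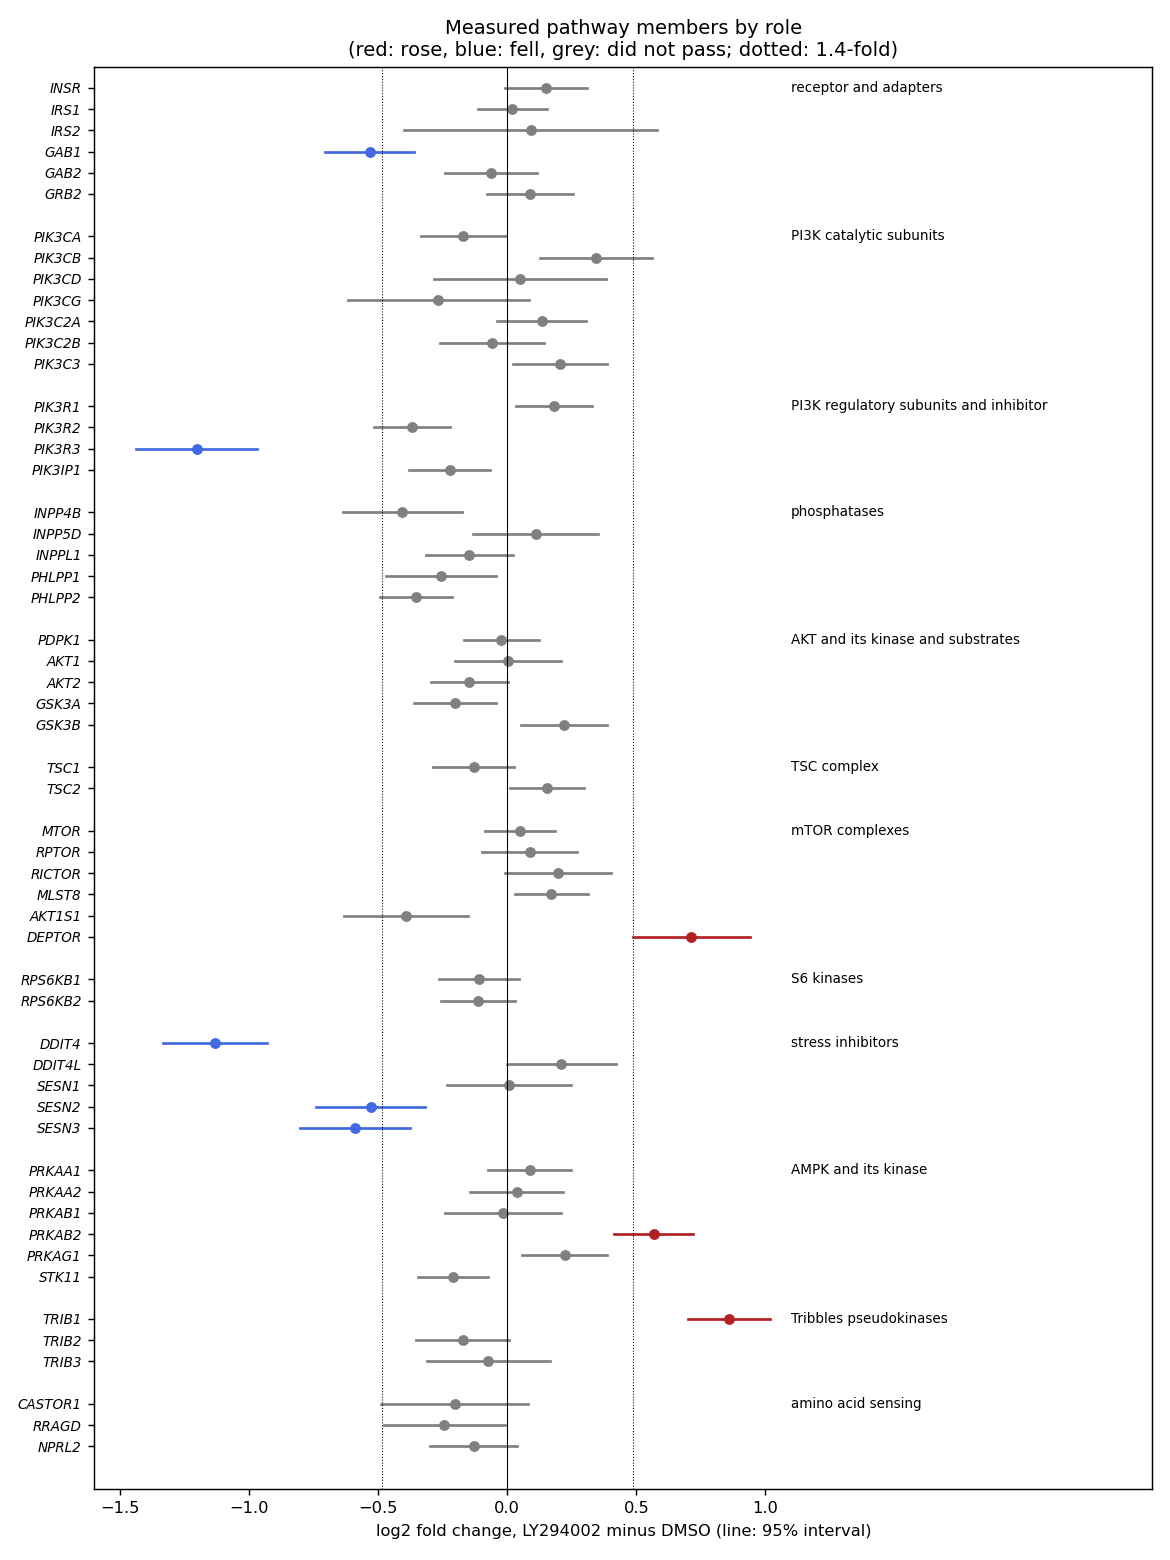
Log2 fold change of LY294002 minus DMSO (horizontal axis) for the 54 measured members, ordered by role; points are estimates, lines 95% intervals from limma and dotted lines the 1.4-fold threshold. PIK3R3 and DDIT4 lie farthest to the left and TRIB1 farthest to the right, while 46 grey members did not pass.

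The insulin receptor and its adapters stand at the top of the cascade. GAB1 (probe 12747840), a docking protein that binds PI3K downstream of growth factor receptors, gave signals of 8.07, 8.10 and 7.93 on the DMSO arrays and 7.55, 7.46 and 7.49 on the LY294002 arrays. The LY294002 arrays all lay below the lowest DMSO array. The mean signals were 8.03 ± 0.09 with DMSO and 7.50 ± 0.05 with LY294002 (SD, n = 3 each), and GAB1 fell 1.45-fold (log2 fold change -0.53, SE 0.07, adjusted p = 0.00589 in limma). GAB2, the related docking protein, had signals of 7.09 to 7.28 in DMSO and 7.10 to 7.17 in LY294002, which overlap (log2 fold change -0.06, 95% interval -0.24 to 0.12).

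INSR, the insulin receptor gene, was at 7.51, 7.47 and 7.50 in DMSO and at 7.71, 7.56 and 7.66 in LY294002, so that its groups did not overlap although the test was not passed (log2 fold change 0.15, 95% interval -0.01 to 0.31, adjusted p = 0.202 in limma). IRS1, the substrate that carries the signal of the insulin and IGF1 receptors to PI3K, was nearly level at 6.07 to 6.09 in DMSO and 6.08 to 6.12 in LY294002. IRS2, a second such substrate, had a wide spread in DMSO, from 3.39 in replicate 1 to 4.23 in replicate 2, against 3.91 to 4.02 in LY294002. Its log2 fold change of 0.09 had a 95% interval of -0.40 to 0.58 and turned to -0.15 without DMSO replicate 1. GRB2, an adapter that links receptors to GAB1 and to RAS, had a log2 fold change of 0.09 (95% interval -0.08 to 0.25). Of these 6 genes, 1 fell and 5 did not pass, with a median log2 fold change of 0.05, while 3.99% of all genes fell.

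The regulatory subunits hold the catalytic subunit of PI3K and bind it to phosphorylated receptors and adapters. PIK3R3 (probe 12836111), which encodes the gamma regulatory subunit, showed the largest change of any member. Its signals were 7.26, 7.09 and 6.94 in DMSO and 5.98, 5.82 and 5.88 in LY294002, with almost a whole log2 unit between the lowest DMSO and the highest LY294002 array. PIK3R3 fell 2.30-fold, between means of 7.10 ± 0.16 and 5.89 ± 0.08 (SD, n = 3 each, log2 fold change -1.20, SE 0.10, adjusted p = 0.00117 in limma).

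PIK3R2 (probe 12883307), the beta regulatory subunit gene, was at 7.39, 7.40 and 7.36 in DMSO and at 7.05, 7.04 and 6.95 in LY294002. These groups were well apart, but the difference is 1.29-fold and under the fold threshold (log2 fold change -0.37, SE 0.06, adjusted p = 0.0119 in limma). Over the alternative analyses its adjusted p ranged from 0.000965 to 0.0547. PIK3R1, the gene of the alpha regulatory subunit, pointed the other way, at 10.55, 10.67 and 10.60 in DMSO and 10.80, 10.79 and 10.77 in LY294002 (log2 fold change 0.18, 95% interval 0.03 to 0.33, adjusted p = 0.113 in limma). PIK3IP1, a membrane protein that inhibits PI3K, was at 6.95 to 7.04 in DMSO and 6.70 to 6.83 in LY294002 (log2 fold change -0.22, adjusted p = 0.0751 in limma). In all 4 genes of this group the 2 treatments did not overlap, which held for 37.1% of all genes, and 1 of them passed both thresholds.

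Of the 7 genes of PI3K catalytic subunits, 0 rose and 0 fell with limma, and the groups did not overlap in 3 (PIK3CA, PIK3CB and PIK3C3), a share close to the 37.1% of all genes. The unadjusted p was under 0.05 for the same 3, of which PIK3CA was lower, compared with 15.0% of all genes higher and 16.2% lower, and 0 passed without moderation of the variances. The largest difference was that of PIK3CB, the beta catalytic subunit, at 6.69, 6.43 and 6.67 in DMSO and 7.02, 6.90 and 6.90 in LY294002 (log2 fold change 0.34, SE 0.09, adjusted p = 0.0549 in limma). PIK3CA, the alpha catalytic subunit, was at 7.71, 7.62 and 7.54 in DMSO and 7.42, 7.48 and 7.46 in LY294002 (log2 fold change -0.17, adjusted p = 0.168 in limma). Its 95% interval reached from -0.33 to -0.01. PIK3C3, the class III enzyme that acts in autophagy and endosomes, had a log2 fold change of 0.20 (95% interval 0.02 to 0.38), and the class II genes PIK3C2A and PIK3C2B had 0.13 and -0.06. PIK3CD and PIK3CG, whose products are best known from white blood cells, had dim signals of 4.63 to 5.05 and 3.84 to 4.45 over the 6 arrays, with log2 fold changes of 0.05 and -0.27. PTPRC, the pan-leukocyte marker, had a mean signal of 3.54 ± 0.20 with DMSO and of 3.50 ± 0.27 with LY294002 (SD, n = 3 each). Of the other white blood cell markers, CD68 and CD14 had DMSO means of 5.88 and 5.65, above that of PIK3CD (4.85). CD3E, ITGAM, CSF1R and LYZ lay below it. The part of white blood cells in these signals was not tested.

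Phosphatases end the signal, by removing phosphates from PIP3 and its products or from AKT itself. Of the 5 genes measured, 0 rose and 0 fell with limma, and the median log2 fold change was -0.26. The unadjusted p was under 0.05 for INPP4B, PHLPP1 and PHLPP2, all lower, compared with 16.2% of all genes, and 0 passed without moderation of the variances. At an adjusted p under 0.05, PHLPP2 and INPP4B stayed under 1.4-fold. PHLPP2, which dephosphorylates AKT, was at 8.13, 8.19 and 8.13 in DMSO and 7.80, 7.77 and 7.82 in LY294002. Its replicates were tight and its groups apart (log2 fold change -0.35, SE 0.06, adjusted p = 0.0119 in limma), with an adjusted p of 0.000356 to 0.0631 over the alternatives. INPP4B, a phosphatase of PI(3,4)P2, was at 5.39, 5.26 and 5.22 in DMSO and 4.91, 5.02 and 4.72 in LY294002 (log2 fold change -0.41, SE 0.10, adjusted p = 0.0394 in limma). Over the alternatives its adjusted p was 0.0225 to 0.107. PHLPP1, the relative of PHLPP2, had a log2 fold change of -0.26 (95% interval -0.47 to -0.04, adjusted p = 0.115 in limma). INPPL1, which encodes the PIP3 phosphatase SHIP2, had -0.15 (95% interval -0.31 to 0.02). INPP5D, the white blood cell relative of INPPL1, was dim at 3.65 to 3.98 and had 0.11 (95% interval -0.13 to 0.35).

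The transcripts of the kinases at the centre of the cascade differed little between the groups. The paper reports lower phospho-AKT protein with LY294002, which mRNA signals do not measure. AKT1 was at 7.23, 7.46 and 7.47 in DMSO and 7.43, 7.33 and 7.41 in LY294002, with a log2 fold change of 0.00 and a 95% interval of -0.20 to 0.21, which leaves out a 1.4-fold change of the signal. AKT2 was at 7.82 to 7.88 in DMSO and 7.65 to 7.76 in LY294002 (log2 fold change -0.15, 95% interval -0.30 to 0.00217). PDPK1, the kinase that activates AKT, had signals of 8.69 to 8.71 and 8.62 to 8.73 (log2 fold change -0.02, 95% interval -0.17 to 0.12).

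The genes of GSK3, the kinase that AKT inhibits, pointed in opposite directions. GSK3A was at 7.66, 7.80 and 7.66 in DMSO and 7.50, 7.50 and 7.51 in LY294002 (log2 fold change -0.20, adjusted p = 0.0974 in limma). GSK3B has 3 probes, with log2 fold changes of 0.22, 0.23 and 0.26 from the brightest (12683165) to the dimmest (12687470). Their adjusted p-values were 0.092, 0.0811 and 0.0478, so that only the dimmest was under 0.05, and none reached 1.4-fold. On each of the 3 probes all LY294002 arrays lay above all DMSO arrays, which held for 18.1% of all genes. The 3 probes read the same samples, so their likeness is not repeated support.

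**Figure D2:**
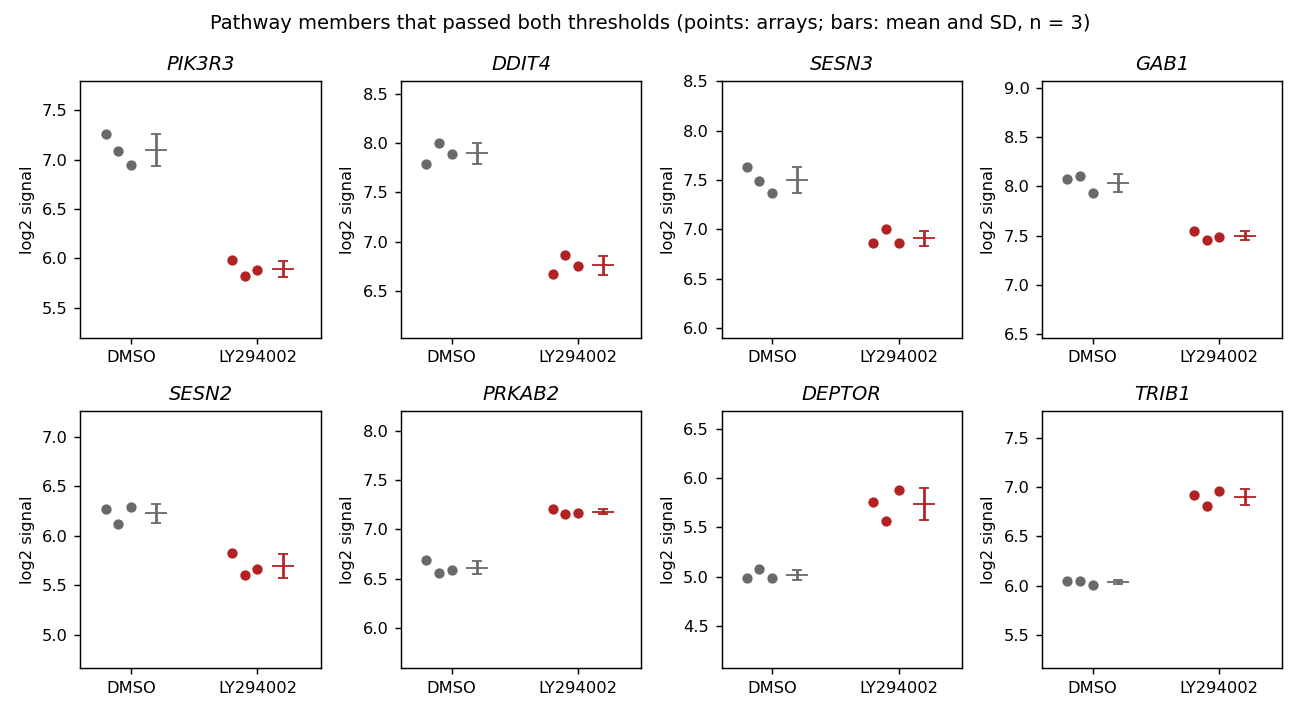
Log2 signal (vertical axis) on each of the 3 DMSO and 3 LY294002 arrays for the 8 members that passed both thresholds, ordered by fold change; bars show the mean and SD (n = 3) and all panels span the same range of log2 units. PIK3R3 and DDIT4 show the widest gaps between the groups among the genes that fell, and TRIB1 among those that rose.

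The stress inhibitors are induced by energy shortage, hypoxia, DNA damage or amino acid stress and restrain mTOR complex 1. Of the 5 genes measured, 3 fell, 0 rose and 2 did not pass, with a median log2 fold change of -0.53. Over all genes 3.99% fell and 2.99% rose, and the roles were set with earlier results of these data known. DDIT4 (probe 12826569), also known as REDD1, which acts through the TSC complex, gave 7.79, 8.00 and 7.89 in DMSO and 6.67, 6.86 and 6.75 in LY294002. The groups lay far apart compared with their spread. DDIT4 fell 2.19-fold, between means of 7.89 ± 0.11 and 6.76 ± 0.10 (SD, n = 3 each, log2 fold change -1.13, SE 0.08, adjusted p = 0.000987 in limma). DDIT4L, its relative, was at 4.27, 4.32 and 4.45 in DMSO and 4.69, 4.45 and 4.53 in LY294002 (log2 fold change 0.21, 95% interval -0.00179 to 0.42, adjusted p = 0.186 in limma). One value, 4.45, occurs in both groups.

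The sestrins bind the GATOR2 complex and thereby hold back mTOR complex 1 when leucine is short, and they are also linked to AMPK. SESN3 (probe 12728123), a target of FOXO factors in other cells, was at 7.63, 7.49 and 7.37 in DMSO and 6.86, 7.00 and 6.86 in LY294002. It fell 1.51-fold, with no overlap of the groups (log2 fold change -0.59, SE 0.09, adjusted p = 0.00844 in limma). SESN2 (probe 12781058), a target of ATF4 in the response to amino acid stress, was at 6.27, 6.12 and 6.29 in DMSO and 5.83, 5.60 and 5.66 in LY294002. It fell 1.44-fold, close to the fold threshold (log2 fold change -0.53, SE 0.09, adjusted p = 0.012 in limma). The call of SESN2 was lost without LY294002 replicate 2 (-0.48, adjusted p = 0.0475, under 1.4-fold) and without LY294002 replicate 3 (-0.51, adjusted p = 0.0501), and over all alternatives its adjusted p was 0.00198 to 0.0501. SESN2 also stands in a list that the study drew from these arrays. SESN1, a target of p53, had overlapping signals of 5.11 to 5.38 and 5.11 to 5.35 (log2 fold change 0.01, 95% interval -0.24 to 0.25).

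Tribbles proteins are pseudokinases that recruit ubiquitin ligases and bind AKT or kinases of the MAPK cascade. TRIB1 (probe 12725414) showed the largest rise of any member, from 6.05, 6.05 and 6.01 in DMSO to 6.92, 6.81 and 6.96 in LY294002. The DMSO arrays were nearly alike and lay far below the lowest LY294002 array. It rose 1.82-fold (log2 fold change 0.86, SE 0.07, adjusted p = 0.00103 in limma). TRIB2 was at 9.20, 9.29 and 9.37 in DMSO and 9.20, 9.05 and 9.09 in LY294002 (log2 fold change -0.17, adjusted p = 0.201 in limma). TRIB3, an ATF4 target that binds AKT, was dim at 3.11 to 3.41 over the 6 arrays, with a log2 fold change of -0.07 (95% interval -0.31 to 0.17). The dimmest 25% of all probes end at a mean signal of 3.17, just below that of TRIB3.

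The mTOR complexes share the kinase MTOR and the subunit MLST8 and differ in RPTOR and RICTOR. Of the 6 genes measured, 1 rose, 0 fell and 5 did not pass, while 2.99% of all genes rose and 3.99% fell. DEPTOR (probe 12723553), an inhibitory subunit of both complexes, was at 4.99, 5.08 and 4.99 in DMSO and 5.76, 5.56 and 5.88 in LY294002. It rose 1.64-fold, between means of 5.02 ± 0.05 and 5.73 ± 0.16 (SD, n = 3 each), with the LY294002 arrays more spread than the DMSO arrays (log2 fold change 0.71, SE 0.09, adjusted p = 0.0055 in limma). AKT1S1, which encodes PRAS40, an inhibitor of mTOR complex 1 that AKT phosphorylates, was at 7.03, 7.24 and 6.89 in DMSO and 6.72, 6.66 and 6.60 in LY294002. The difference stayed under 1.4-fold (log2 fold change -0.39, SE 0.10, adjusted p = 0.0492 in limma), and its adjusted p was 0.009 to 0.142 over the alternatives. The inhibitory subunits thus had estimates of opposite sign.

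MTOR itself differed little, at 7.68, 7.69 and 7.65 in DMSO and 7.72, 7.74 and 7.71 in LY294002 (log2 fold change 0.05, 95% interval -0.08 to 0.18). RPTOR had a log2 fold change of 0.09 (95% interval -0.10 to 0.27), RICTOR one of 0.20 (95% interval -0.01 to 0.40) and MLST8 one of 0.17 (95% interval 0.03 to 0.31, adjusted p = 0.117 in limma). Upstream of them, TSC1 and TSC2, whose products together switch off RHEB, had log2 fold changes of -0.13 and 0.15. The groups did not overlap in either gene, nor in MTOR, RICTOR, MLST8, RPS6KB1 and RPS6KB2, while this held for 37.1% of all genes. TSC2 was at 7.47, 7.54 and 7.53 in DMSO and 7.71, 7.65 and 7.64 in LY294002 (adjusted p = 0.157 in limma). Downstream, the S6 kinase genes RPS6KB1 and RPS6KB2 had log2 fold changes of -0.11 and -0.11, with 95% intervals of -0.27 to 0.05 and -0.26 to 0.03.

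AMPK senses low energy and acts against mTOR complex 1, and it consists of a catalytic alpha, a scaffold beta and a nucleotide-binding gamma subunit. PRKAB2 (probe 12837997), the beta 2 subunit, was at 6.69, 6.56 and 6.59 in DMSO and 7.21, 7.16 and 7.17 in LY294002. It rose 1.48-fold with closely grouped arrays (log2 fold change 0.57, SE 0.06, adjusted p = 0.00316 in limma). PRKAB1, the beta 1 subunit, had overlapping signals of 8.47 to 8.65 and 8.45 to 8.72 (log2 fold change -0.02, 95% interval -0.24 to 0.21). The catalytic subunit genes PRKAA1 and PRKAA2 had log2 fold changes of 0.09 and 0.04, and PRKAG1, the gamma 1 subunit, had 0.22 (adjusted p = 0.0842 in limma).

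STK11, which encodes the AMPK-activating kinase LKB1, has 2 probes. The brighter was at 7.57, 7.57 and 7.58 in DMSO and 7.34, 7.39 and 7.36 in LY294002, and both gave a log2 fold change of -0.21 (adjusted p = 0.0564 and 0.076 in limma). The gene ID of the brighter probe is that of STK11 in the RefSeq table used for names, while the ID of the other was not found there. Among the amino acid sensing genes, CASTOR1, an arginine sensor, had a log2 fold change of -0.20, RRAGD, a Rag GTPase that tethers mTOR complex 1 to the lysosome, had -0.24, and NPRL2, a subunit of the GATOR1 complex that acts on the Rag GTPases, had -0.13. Their adjusted p-values were 0.169 to 0.337.

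**Figure D3:**
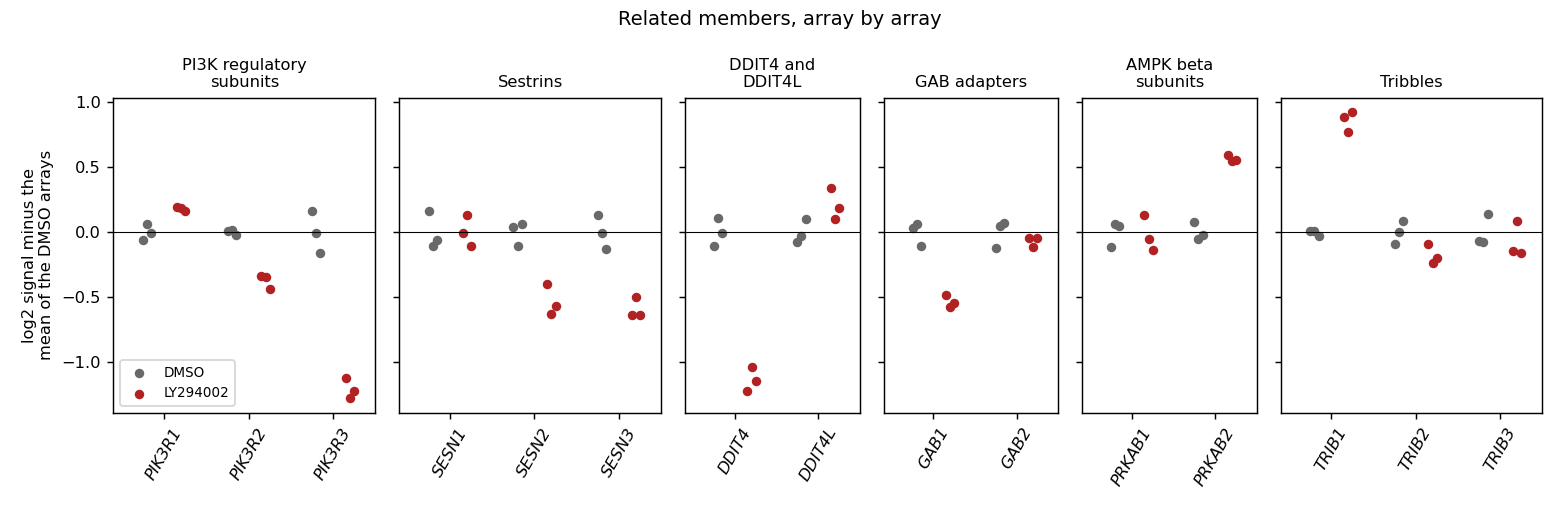
Log2 signal of each array minus the mean of the 3 DMSO arrays for that gene (vertical axis), for 6 sets of related members; grey points are DMSO and red points LY294002 arrays. On the 3 LY294002 arrays PIK3R3, DDIT4 and GAB1 lie below and PRKAB2 and TRIB1 above their relatives, and SESN2 and SESN3 lie below SESN1.

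To compare related genes, the difference between 2 of them was taken within each array, which removes any scaling of the whole array. The 10 pairs were chosen after their values were seen. The log2 signal of PIK3R3 minus that of PIK3R1 was -3.51 ± 0.19 with DMSO and -4.89 ± 0.08 with LY294002 (SD, n = 3 each), a shift of -1.38. For DDIT4 against DDIT4L the shift was -1.34, for TRIB1 against TRIB2 it was 1.03, for SESN3 against SESN1 -0.60 and for PRKAB2 against PRKAB1 0.58. SESN2 against SESN1 shifted by -0.54, PIK3R2 against PIK3R1 by -0.55, PIK3CB against PIK3CA by 0.51 and GAB1 against GAB2 by -0.47. In these 9 pairs the groups did not overlap, and a two-sided exact permutation test over the arrays gave p = 0.1, the lowest value possible with 3 arrays in each group (0.111 after Benjamini-Hochberg adjustment over the 10 pairs). Groups that do not overlap always give this p. As the pairs were picked on their values, neither the test nor the lack of overlap is support for a difference between relatives. PHLPP2 against PHLPP1 shifted by -0.10 with overlapping groups (exact permutation p = 0.5). A probe may respond less than in proportion to its transcript, so the shifts compare signals and not numbers of transcripts.

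The intervals cover the spread of the signals between arrays, and not a change of a transcript that its probe does not follow. For 38 of the 46 members that did not pass, the 95% interval of the log2 fold change, not adjusted for the number of genes, lay wholly inside 1.4-fold in either direction. The intervals of the other 8 (IRS2, PIK3CB, PIK3CG, PIK3R2, INPP4B, PHLPP2, AKT1S1 and CASTOR1) reached past it. At an adjusted p under 0.05 and any fold change, 3 members were higher and 9 lower, or 5.56% and 16.7%, compared with 7.01% and 8.7% of all genes. The 2 treatments did not overlap in 33 of 54 members (13 higher and 20 lower on every LY294002 array), while this held for 37.1% of all genes (18.1% higher and 19.0% lower). The choice of the members with earlier results known, and the dim probes among all genes, limit these comparisons too. The median SD of the replicates was 0.08 in DMSO and 0.06 in LY294002 over the members, 0.06 and 0.06 over the 73 further pathway genes described next, and 0.10 and 0.09 over all genes. The part of this in the count was not tested.

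Other genes of the pathway were read from a further list of 77, of which 73 were measured. Of these, 3 rose (FOXO1, INPP5F and PRKAG2), 2 fell (PRKAG3 and LAMTOR1) and 68 did not pass, with a median log2 fold change of 0.05. These shares, 4.11% and 2.74%, lie close to the 2.99% and 3.99% of all genes, but this list too was chosen with earlier results known. PRKAG3 (probe 12781370), the AMPK gamma 3 subunit best known from skeletal muscle, changed more than any member, from 7.47, 7.54 and 7.51 in DMSO to 5.99, 5.87 and 5.88 in LY294002. It fell 3.02-fold (log2 fold change -1.59, SE 0.06, adjusted p = 0.000165 in limma), while PRKAG2, the gamma 2 subunit, rose from 6.97, 6.93 and 7.05 to 7.48, 7.52 and 7.57 (log2 fold change 0.54, SE 0.06, adjusted p = 0.0038 in limma). Among the AMPK subunit genes of both lists, PRKAB2 and PRKAG2 therefore rose and PRKAG3 fell.

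FOXO1, the forkhead factor that AKT keeps out of the nucleus, was at 8.96, 9.05 and 9.06 in DMSO and 9.79, 9.73 and 9.71 in LY294002. It rose 1.65-fold (log2 fold change 0.72, SE 0.06, adjusted p = 0.00142 in limma). INPP5F, a phosphoinositide phosphatase, was at 6.48 on all 3 DMSO arrays and at 7.26, 7.24 and 7.18 in LY294002 (log2 fold change 0.75, SE 0.06, adjusted p = 0.00108 in limma). The study had drawn INPP5F from these arrays into one of its lists. The rise of INPP5F, like every call given here, comes from the arrays that the study used and is not independent evidence. LAMTOR1, the lipid-anchored subunit of the Ragulator complex that holds the Rag GTPases on the lysosome, fell 1.48-fold, from 8.06, 8.03 and 8.16 to 7.55, 7.51 and 7.48 (log2 fold change -0.57, SE 0.06, adjusted p = 0.0032 in limma).

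**Figure D4:**
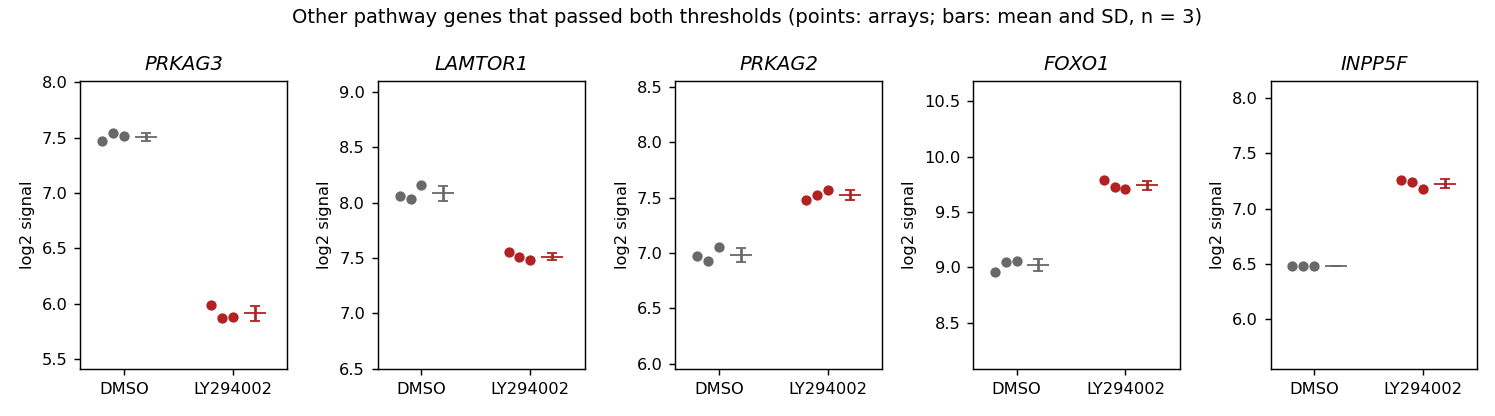
Log2 signal (vertical axis) on each of the 3 DMSO and 3 LY294002 arrays for the 5 further pathway genes that passed both thresholds; bars show the mean and SD (n = 3) and all panels span the same range of log2 units. PRKAG3 dropped from about 7.51 to 5.91, while PRKAG2, FOXO1 and INPP5F lay higher on all LY294002 arrays.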

How the data were processed

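RNA of 3 DMSO and 3 LY294002 samples was hybridized by the authors to Bovine Gene 1.0 ST arrays. The authors deposited log2 signals made with RMA (background correction, normalization between arrays, summary per transcript cluster). The RMA version is not given in the sources used here, and other background corrections could not be tried on summarized values. Probes were named from the platform annotation, checked against RefSeq (assembly ARS-UCD2.0). Probes with several symbols were left out. Coordinates and sequences are not given, because no source used here names the build behind the array and no sequences were at hand.

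The treatments were compared with limma 3.58.1 (lmFit, eBayes) under R 4.3.3 on all 24415 probes, without a covariate, with Benjamini-Hochberg adjustment. Intervals are 95% limits of this fit. Replicate numbers were not taken as pairs, because same-numbered arrays did not deviate together (r of -0.04, -0.02 and -0.03).

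The members, the further list and the roles were chosen with earlier results of these data known. Members with an adjusted p under 0.05 are given array by array, other members by role, and further genes where they passed both thresholds. Some others are given array by array as well, chosen after their values were seen. Alternatives were a model without moderated variances, the replicate number as a block, array weights, a robust fit with a trend on intensity, quantile normalization, median centring, removal of the dimmest 25% of probes, of probes without a single symbol or of 1 array at a time, the mean of a gene's probes, and other thresholds. The number of arrays limits the precision.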

Additional observations from a re-analysis of the deposited data

How the results depend on the processing

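The 3 members that rose and the 5 that fell gave the same counts under each change of model, normalization, filter or probe choice. Leaving out 1 array gave 3 that rose and 4 to 5 that fell, the lower count without LY294002 replicate 2 or 3, where the call of SESN2 was lost. At an adjusted p under 0.01 with 1.4-fold, 3 members rose and 4 fell. At an adjusted p under 0.05 and any fold change, 9 members were lower in place of 5, 9 further pathway genes higher in place of 3 and 6 lower in place of 2, and over all probes 1489 were higher and 1760 lower in place of 629 and 825. With the replicate number as a block, which the check of pairing did not bear out, 546 probes rose and 706 fell, and 3 and 5 members as before.

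The log2 fold change took both signs only for 8 members near 0, none of them called. With 1 array left out, it ranged from -0.15 to 0.268 for IRS2, from -0.04 to 0.185 for PIK3CD, from -0.115 to 0.02 for PIK3C2B, from -0.05 to 0.005 for PDPK1, from -0.075 to 0.045 for AKT1, from -0.0567 to 0.0883 for SESN1, from -0.00167 to 0.0883 for PRKAA2 and from -0.0933 to 0.0417 for PRKAB1. AKT1 also turned with median centring (-0.00333) and array weights (-0.0104). Dim signals such as those of IRS2, TRIB3, INPP5D and PIK3CG limit what can be said of these genes.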
